A study of Homo sapiens with 36 samples.

Results

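Cytoplasmic ribosomal protein genes code for the protein part of the 40S and 60S ribosomal subunits. Members were the protein-coding genes of RefSeq whose symbol is RPL or RPS with a number and letter suffixes, together with RPSA, RPLP0, RPLP1 and RPLP2, on chromosomes 1 to 22 and X. S6 kinase genes, a binding protein gene and read-through genes were left out. This gave 85 of 19970 protein-coding genes, of which 31 code for small subunit proteins, 43 for large subunit proteins, 3 for the stalk proteins of the large subunit and 8 for paralogues of other members. The series title asks how the SWI/SNF chromatin remodeller governs access to enhancers in triple-negative breast cancer. Peak lists from ATAC-seq, which reads open chromatin through the insertions of a transposase, covered 36 libraries. All came from BT549, an established cell line of this cancer, with the genotype given as wild type. MDA-MB-231 cells, also named in the design, were not analysed here.

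The libraries formed 10 groups in 3 experiments. In the GATA6 experiment, cells with control siRNA (siCtl) or a pool of siRNAs against the transcription factor GATA6 (siGATA6, 72 h) had vehicle or 500 nM dexamethasone (DEX) for 2 h. Each of these groups had 3 libraries. DEX is a synthetic ligand of the glucocorticoid receptor. The BRM014 experiment had 4 libraries in each of 4 groups: DMSO or 10 µM BRM014 for 4 h, without DEX or with 500 nM DEX for 4 h. BRM014 inhibits BRG1 and BRM, the 2 alternative ATPases that drive SWI/SNF. The knockdown experiment set 4 libraries with siRNA against both BRG1 and BRM (siBRG1_siBRM) beside 4 with control siRNA alone (siCtl_only), and the labels state no duration for it. Peak lists carry no transcript levels, so how far the siRNAs lowered their targets was not checked here.

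Ribosomal protein genes are transcribed at high rates in nearly all growing cells, and their products are made in matched amounts so that subunits can be assembled. Their promoters are short, usually have no TATA box at the usual place and start transcription within a run of pyrimidines. The mRNAs therefore begin with a terminal oligopyrimidine tract (TOP), through which mTOR signalling controls their translation.

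Promoter windows of RefSeq, running from 250 bases before to 50 after an annotated start (build GRCh38.p14), were present for 68 of the 85 members, in 84 windows. Members with no matched window included RPL23, RPL3L, RPS20, RPL30, RPL23A, RPS15A, RPL37, RPS2, RPL8, RPL7, RPL39L and RPL5. The sequences below run from 100 bases before to 20 bases after the start, on the strand of the gene, for the members that show the range of accessibility: the strong start regions of RPS6 and RPL11, the intermediate one of RPLP0, the weak one of RPL41, the start of RPL19, which few libraries held, and RPL10L, near which no library had a peak. Capitals mark a run of at least 6 pyrimidines that reaches within 10 bases of the start and, in RPS6, the palindrome TCTCGCGA.
RPS6 (chr9:19380217-19380336, minus strand): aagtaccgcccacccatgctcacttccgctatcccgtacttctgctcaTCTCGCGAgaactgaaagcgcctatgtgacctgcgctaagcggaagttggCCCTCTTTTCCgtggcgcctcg
RPL11 (chr1:23691706-23691825, plus strand): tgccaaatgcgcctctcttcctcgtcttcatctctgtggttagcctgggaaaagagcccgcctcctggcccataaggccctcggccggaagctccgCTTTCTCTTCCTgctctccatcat
RPLP0 (chr12:120201092-120201211, minus strand): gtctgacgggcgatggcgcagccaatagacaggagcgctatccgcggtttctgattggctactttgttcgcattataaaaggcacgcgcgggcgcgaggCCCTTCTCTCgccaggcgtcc
RPL41 (chr12:56116533-56116652, plus strand): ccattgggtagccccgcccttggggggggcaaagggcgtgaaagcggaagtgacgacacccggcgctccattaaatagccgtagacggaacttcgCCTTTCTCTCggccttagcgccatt
RPL19 (chr17:39200223-39200342, plus strand): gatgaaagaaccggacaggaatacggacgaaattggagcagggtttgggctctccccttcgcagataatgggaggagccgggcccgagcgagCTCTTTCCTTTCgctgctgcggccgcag
RPL10L (chr14:46651762-46651881, minus strand): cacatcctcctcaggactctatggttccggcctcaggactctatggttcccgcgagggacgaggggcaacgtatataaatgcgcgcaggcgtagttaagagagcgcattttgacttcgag

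The pyrimidine run at the start was found in 70 of the 84 member windows (83.3%), against 31.3% of the 22155 windows of all protein-coding genes. It was 11 bases long in RPS6, 12 in RPL11 and RPL19 and 10 in RPLP0 and RPL41, and it was not in the window of RPL10L, whose gene is an intronless copy known from testis. Motifs were searched on both strands of the whole window, and none of them contains another. The palindrome TCTCGCGA occurred in 15.5% of member windows against 1.58% of all windows, and the ETS letters CCGGAAG in 33.3% against 12.8%. Shares nearer to those of all windows were found for the Sp letters GGGCGG (54.8% against 56.3%), TATAAA (8.33% against 9.47%), the YY1 letters AAGATGG (10.7% against 6.04%) and the E-box CACGTG (5.95% against 8.34%). Letters read by the factors of this series were also searched. The GATA letters AGATAA occurred in 4.76% of member windows against 7.88%, the glucocorticoid receptor letters AGAACA in 13.1% against 11.7%, and the AP-1 letters TGANTCA in 2.38% against 6.16%. A match of letters does not show that a factor binds there.

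Peaks whose centre lay in a member gene or within 10 kb of either end were taken from every library, and within an experiment those that overlapped were joined into 1 region. Member genes had 591 such regions of 204358 in the GATA6 experiment, 549 of 189959 in the BRM014 experiment and 448 of 128681 in the knockdown experiment. A library is said to hold a region when a peak of it overlaps the region by at least 1 bp. In bulk ATAC-seq, a site opened in fewer cells and a site opened less in every cell cannot be told apart. Libraries had between 37184 and 131423 peaks, and the fewest came with BRM014 (41026 to 60995 without DEX) and with siBRG1_siBRM (37184 to 66607). The background level under weak peaks, a measure of relative depth recovered from the deposited values, was 0.241 to 0.305 with DMSO and 0.235 to 0.299 with BRM014, so these overlapped. It was 0.492 to 0.677 in the GATA6 experiment, and counts were therefore compared only within an experiment. Of the cell markers, VIM, CDH2, FN1, SPARC and COL1A1 of mesenchymal cells had a peak at a gene end in all 36 libraries and ZEB1 in 35, while ESR1, PGR, PECAM1, CDH5 and VWF had none in any. Among markers of other cell types, ERBB2, FOXA1, SPI1 and SYP had one in all 36 libraries and PTPRC in 30.

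Nearly every ribosomal protein gene had an accessible region at its start or at a gene end in every library. For each member, the main region was the one at its annotated start that most libraries held. Where no start was known, a gene end was used. Among equals, the region with the highest peaks over all libraries of the experiment was taken, treated ones included. The choice was made in each experiment on its own, so the main region of a gene can differ between experiments. At RPL7A it lay 980 bp from the start in the GATA6 experiment and over the start in the BRM014 experiment. In 81 of the 85 genes the main region of each experiment was held by all libraries of that experiment. Single libraries held the main region of 82 to 84 members. An annotated start was matched for 67 members, and their main region covered it in 56, 56 and 55 in the GATA6, BRM014 and knockdown experiments. The exceptions among the 85 were RPL10L with no region at all, RPL19, RPL38 and RPL17. The region over the start of RPL38, a 60S protein required for translation of Hox mRNAs, was held by 12 of 12, 15 of 16 and 7 of 8 libraries in the 3 experiments. That of RPL17 was missing from 1 library of the knockdown experiment. RPL19, a 60S protein that reaches into the 40S subunit, differed from the rest. A region 201 bp before its start (chr17:39199908-39200082) was held by 2 of 4 DMSO, 2 of 4 BRM014, 4 of 4 DEX_DMSO and 4 of 4 DEX_BRM014 libraries, and the start itself lay under a peak in 1 of these 16 libraries.

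Regions near the members were shared by libraries more often than other regions were. In the BRM014 experiment, 193 of 549 member regions (35.2%) were held by all 16 libraries, against 15.3% of all regions. Position within the locus went along with this: at the ends of member genes the share was 52.8%, inside the genes 7.89% and in the flanks 20.6%, while regions at the ends of all protein-coding genes gave 37.6%. In the GATA6 experiment 44.8% of member regions and 35.1% of all regions were held by all 12 libraries, and in the knockdown experiment 42% and 22.4% by all 8. The summit of the main region lay a median 80.5 bp before the annotated start in the BRM014 experiment, upstream in 64 of 67 genes, with quartiles of −170.2 and −49 bp relative to it. It lay 95 bp before the start in both other experiments.

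The height of the start regions varied widely among members. Heights are given as fold rank: within each library, the authors' peak fold was ranked as a percentile among the 29011 regions that all 16 libraries of the BRM014 experiment held, so that every library ranks the same regions and a high value marks a tall peak. RPS20, RPL11, RPL22 and RPS15A had the highest mean ranks, at 98.2, 96, 94.3 and 93.8. RPL41, RPL32, RPL36 and RPL17 had the lowest, at 6.22, 18.6, 18.7 and 20. RPL41 codes for the smallest ribosomal protein, and its region over the start (chr12:56116497-56116708) ranked 1.56, 3.1, 3.74 and 3.69 in the DMSO libraries. RPL11, which together with RPL5 carries 5S rRNA and binds MDM2, ranked 96.5, 91.7, 98.1 and 96.8 there. RPL41 was also the lowest in the GATA6 and knockdown experiments, at 15.4 and 3.23, with RPS20 the highest at 97.3 and 97.8. The 12 members with the palindrome TCTCGCGA and a ranked main region had a median rank of 48, against 70.2 for the 53 others with a promoter window, and those with CCGGAAG had 69.8 against 66.8. By role, median ranks were 70.5 for the small subunit, 65.9 for the large subunit, 61.3 for the stalk and 83.4 for the paralogues.

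**Figure D1:**
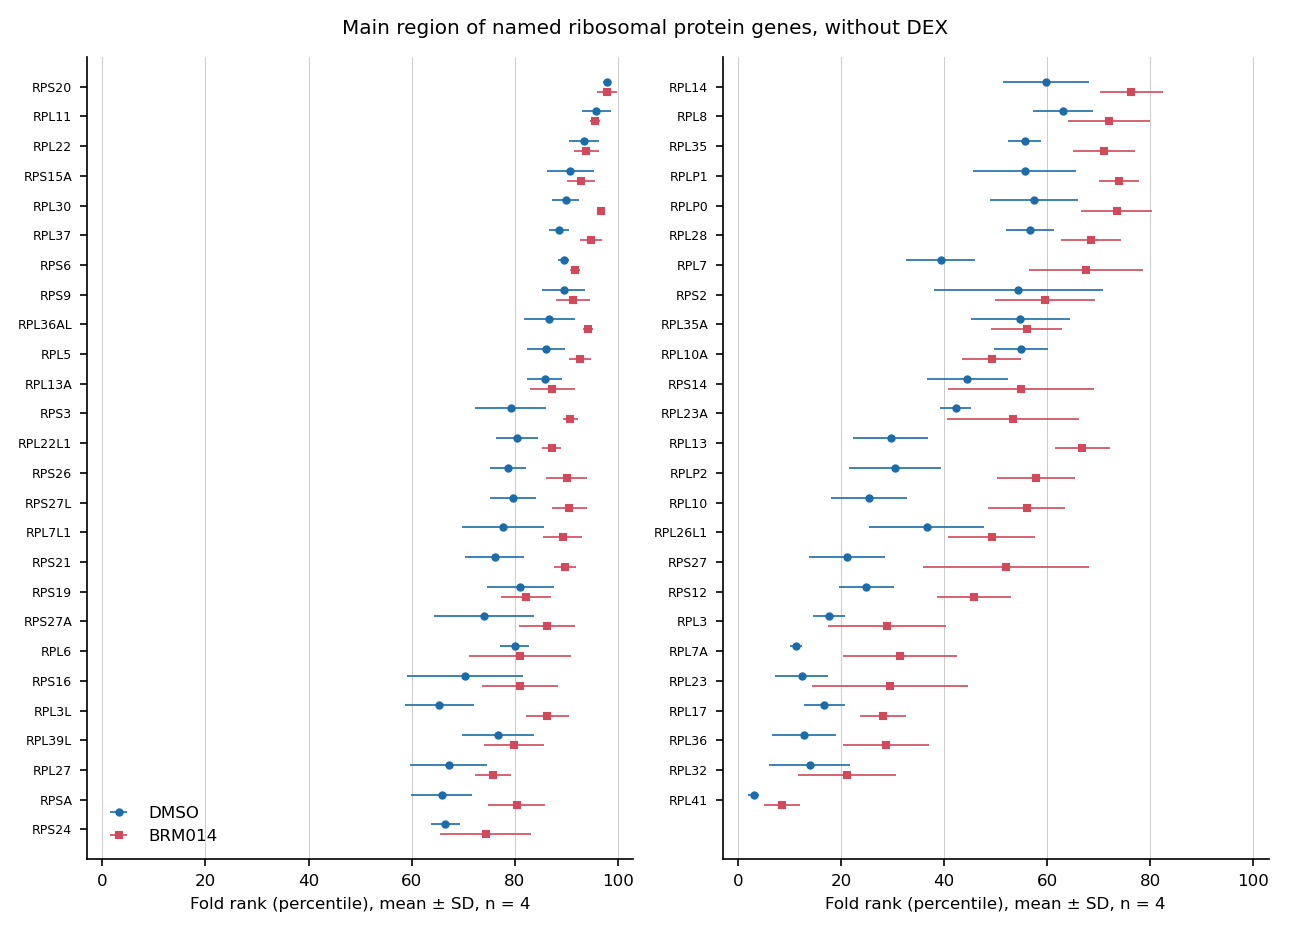
Fold rank of the main region of 51 ribosomal protein genes named in the text, of the 82 whose main region was held by all 16 libraries of the BRM014 experiment, in order of mean rank. Points are means and bars SDs of 4 libraries with DMSO (circles) and 4 with BRM014 (squares), both without DEX; most squares lie to the right of the circles, and RPL13 and RPS27 show some of the widest gaps.

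With BRM014, few member regions were lost. Without DEX, 7 of the 549 regions were held by every DMSO library and no BRM014 library, which is 1.28% of member regions, while 8.39% of all regions in the experiment were lost in this way. With DEX present, 14 member regions were lost (2.55%, against 9.21% of all). At the ends of all protein-coding genes 4.51% were lost without DEX and 4.62% with it. At member gene ends it was 0.943% and 3.3%. Gains were rarer, at 2 regions in each setting, against 0.0321% and 0.0632% of all regions. The 9 regions changed without DEX became 16 without DMSO replicate 1 and 15 without BRM014 replicate 4, where the rule asks fewer libraries to agree. The direction turned when every library was reduced to an equal number of its best peaks: 15 member regions were then gained and 4 lost without DEX, and 18 and 4 with DEX. Shares over all regions at this setting are not given here, so nothing particular to the members is read from these counts. Of the 239 member regions that every DMSO library held, 199 (83.3%) were held by every BRM014 library as well. For all regions near protein-coding genes the share was 53.5%. Both kinds of position showed it: 113 of 127 regions at member gene ends were kept (89%, against 72.2% at all gene ends), and 43 of 64 regions inside or beside member genes (67.2%, against 40.8%). With DEX, 206 of 251 (82.1%) were kept near members and 56.2% near all protein-coding genes. The members were not tested as a group against other genes.

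**Figure D2:**
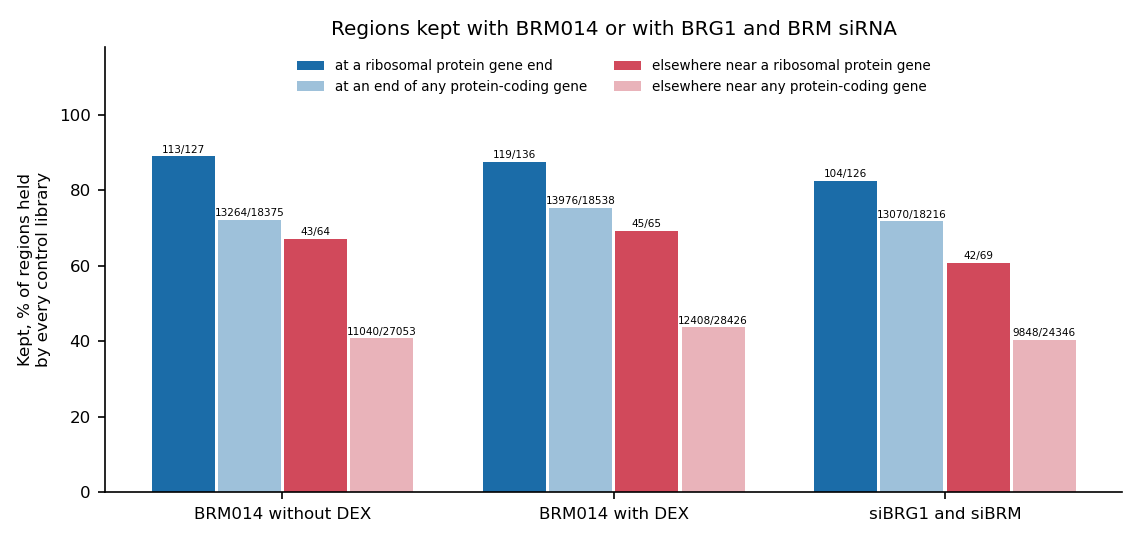
Share of the regions held by every control library that was also held by every treated library, for BRM014 without and with DEX and for BRG1 and BRM siRNA. Bars give regions at an end of a ribosomal protein gene, at an end of any protein-coding gene, and elsewhere near each; the numbers above are regions kept and regions held by the controls, and regions beside members that lie at the end of another gene are not drawn.

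Single libraries showed the same contrast between the members and the genome. BRM014 libraries had 53586 ± 9441 peaks (SD, n = 4) against 94069 ± 4805 with DMSO, a drop of 43%, and the groups did not overlap. Of the member regions, the DMSO libraries held 50.8%, 56.6%, 54.6% and 55.6% and the BRM014 libraries 49.7%, 57.2%, 52.8% and 41.9%. These groups overlapped, and the mean dropped by 7.36%. With DEX present, 60.5%, 58.8%, 59% and 55.6% were held without BRM014 and 53.9%, 53.9%, 49.5% and 47.2% with it, so the groups were apart and the mean dropped by 12.5%. BRM014 replicate 4, the library with the fewest member regions in the experiment, also had the fewest peaks, 41026, and depth and peak number were not tested as a source of this. The main regions became narrower, from a median 300.9 ± 12 bp to 267.2 ± 18.3 bp (SD, n = 4), a drop of 11.2%, while the median over regions at all gene ends fell from 282 ± 5.35 bp to 235 ± 18.3 bp.

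**Figure D3:**
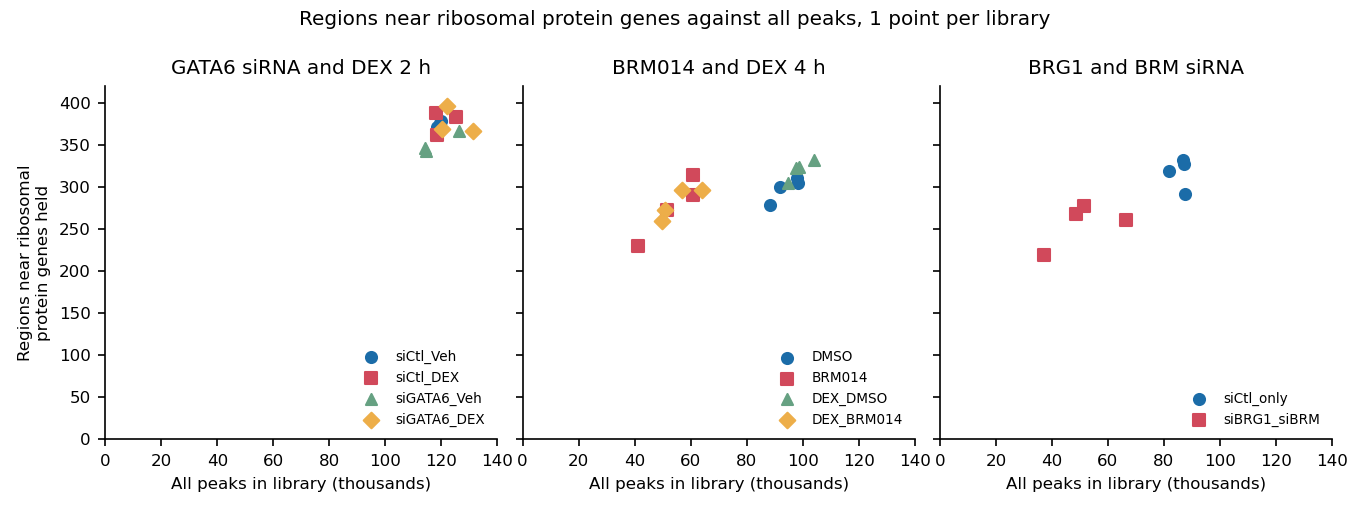
Number of regions near ribosomal protein genes that a library held (vertical axis) against the number of all its peaks (horizontal axis), 1 point per library, in the 3 experiments. In the BRM014 experiment the groups with and without BRM014 are apart on the horizontal axis, while DMSO (279 to 311 regions) and BRM014 (230 to 314 regions) overlap on the vertical axis.

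Of the 7 regions lost with BRM014 without DEX, 5 were not at an end of the member gene. One was inside RPL22, which codes for a 60S protein. This region (chr1:6188573-6188837, 265 bp) lay 10758 bp downstream of the start within the gene, with peak folds of 11.9, 9.77, 11.9 and 12 in DMSO and 9.2, 11, 13.2 and 14 in DEX_DMSO libraries, and no peak in any of the 8 BRM014 libraries. The start of RPL22 ranked 93.5 ± 2.94 with DMSO and 93.9 ± 2.46 with BRM014 (SD, n = 4). RPL3, whose product reaches towards the peptidyl transferase centre, had a region inside the gene (chr22:39316440-39316683), 2940 bp from the start, with folds of 7.87 to 9.89 in the 8 libraries without BRM014 and no peak in the 8 with it. A second region 3692 bp beyond the 3′ end of RPL3 (chr22:39308636-39309190) had folds of 10.1 to 14.1 without BRM014, a fold of 3.57 in 1 BRM014 library and no peak in the other 7. The tallest region lost without DEX, with a mean fold of 14.9 where held, lay 1166 bp before the RPL13 start. It is described below, with one lost at RPL10. The others lost without DEX were weaker. RPL36 lost one 537 bp from a gene end, and RPL8 and RPL28 each lost one at the end of a neighbour, ZNF517 and UBE2S, with 1 and 2 of the 4 DEX_DMSO libraries holding them.

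With DEX present, 7 of the 14 lost regions were at an end of the member gene. These were 3.3% of the 212 regions at member gene ends, near the 4.62% lost at the ends of all protein-coding genes. RPLP1, a stalk protein, lost a region 197 bp from its start (chr15:69453015-69453161) that 3 of 4 DMSO and 4 of 4 DEX_DMSO libraries held and none of the BRM014 libraries, while its main region was held throughout. RPL11 lost one 353 bp from a start, RPS14 one 200 bp away and RPS27L, a paralogue of RPS27, one 514 bp away. RPL7A, RPL30, RPS21 and RPS12 also lost a region, and 2 more members did so over 7 kb from the gene. Mean folds of these 10 regions where held ran from 4.51 to 7, below the 11.6 of RPL22 and the 8.67 and 11.4 of RPL3. RPL3 gained a weak region 207 bp from its 3′ end, held by 1 of 4 BRM014 and 4 of 4 DEX_BRM014 libraries. The mitochondrial ribosomal protein genes, a list of the same kind whose products form the separate ribosome of mitochondria, had a lost region at 11 of 77 genes without DEX (14.3%), against 7 of 85 (8.24%) here. With DEX it was 12 of 77 (15.6%) against 14 of 85 (16.5%). Ribosome biogenesis genes had one at 10 of 25 in both settings, other translation genes with a TOP tract at 9 of 20 without and 7 of 20 with DEX, and all protein-coding genes at 29.8% and 32%.

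A test over both DEX settings was possible for BRM014, by permuting libraries within each setting (two-sided exact permutation test per region, Benjamini-Hochberg adjustment over 160948 regions). It called 9.41% of all regions lower and 0.0217% higher. Among 356 member regions tested, 7 were lower and 1 was higher. The regions inside RPL22 and RPL3 had an adjusted p of 0.00735, as did the region gained at RPL10 described below. The smallest unadjusted p that this permutation can give is 0.000408. For RPL30, RPS27L, RPLP1, the 3′ region of RPL3 and the region lost at RPL10 the adjusted p was 0.0216. The same exact test called 0% of regions for DEX at 2 h, DEX at 4 h and siGATA6. The smallest p it can give is 0.005 for DEX at 2 h and siGATA6 and 0.000408 for DEX at 4 h. These pass adjustment over 132561 and 160948 regions only where many regions reach them, so 0% does not show an absence of change. At an unadjusted p under 0.05 the test gave 3, 1 and 0 member regions, of 4444, 3888 and 1062 in all.

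Among regions held by all 16 libraries, those near ribosomal protein genes rose more often with BRM014 than all regions did. Their share was near that of regions at the ends of any gene, though not all member regions lie at one. A rank says where a region stands among the others, and it can rise because its own fold rose or because others fell. Of the 193 member regions held by all 16 libraries, 56 rose and 9 fell without DEX (limma with Benjamini-Hochberg adjustment over 29011 regions), where 17.8% of all regions rose and 13.7% fell. With DEX present 63 rose and 10 fell, against 18.3% and 14.3% of all. The shares that rose were 29% and 32.6% near members and 27.1% and 28.5% over regions at all gene ends. In both settings 37 of the risers and 6 of the fallers were shared. With DEX the calls fell to 45 without DEX_BRM014 replicate 4. The median change near members was 6.96 percentile points without DEX and 7.33 with it. Over all regions it was 1.72 and 1.92, and over all regions at gene ends it was 5.61 and 5.95. The 153 member regions that lay at a gene end had medians of 8.62 without DEX and 8.32 with it. Ranked among gene ends only, 21 of 153 member regions rose and 5 fell without DEX, and 17 and 6 with DEX, while 20.5% and 20.9% of all regions at gene ends changed in either direction. The members' share of calls was therefore not above that of gene ends in general. In these ranks their median change was 3.34 points without DEX and 3.65 with it. In median, the mitochondrial ribosomal protein genes rose by 4.51 points, ribosome biogenesis genes by 5.34 and other TOP translation genes by 9.38 without DEX.

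**Figure D4:**
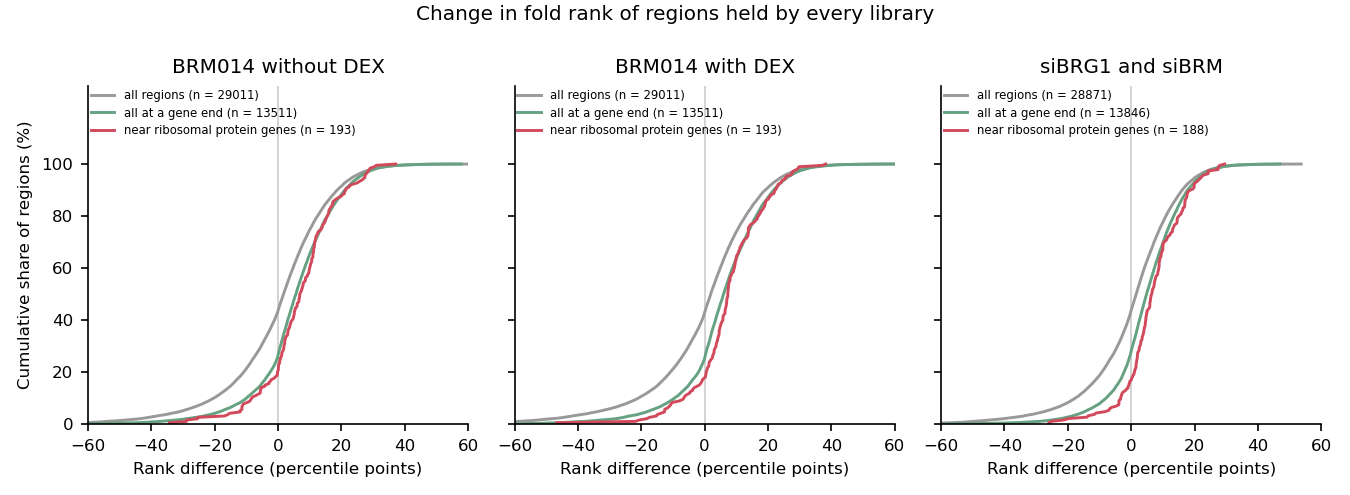
Cumulative share of regions (vertical axis) by the change in fold rank in percentile points (horizontal axis, shown from −60 to 60) for BRM014 without DEX, BRM014 with DEX, and BRG1 and BRM siRNA. The curve near ribosomal protein genes lies to the right of that of all regions and close to that of regions at gene ends, with medians of 6.96, 1.72 and 5.61 points without DEX.

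Of the 82 main regions, 26 rose and none fell without DEX by limma, 77 had a positive change, and 37 rose and none fell with DEX. These regions lie at starts or gene ends, and of all regions at gene ends 27.1% rose and 6.42% fell without DEX and 28.5% and 6.36% with it. Each was the highest-ranked candidate over all 16 libraries, those with BRM014 included, a choice that favours regions that rise. The region before the start of RPL10, which fell (described below), was not chosen. Without DEX the largest change was at RPL13, which codes for a 60S protein. Its start region (chr16:89560468-89560735) ranked 38.5, 22.3, 32.6 and 25.1 with DMSO and 65.8, 62, 74.3 and 64.9 with BRM014. No library of one group reached the other, and the change was 37.1 ± 6.08 points (SE, limma adjusted p = 2.36e-04). With DEX it was 37.2 points (adjusted p = 1.95e-04). The flank of the same gene changed the other way. A region 1166 bp before the RPL13 start (chr16:89559078-89559491) had folds of 15.1 to 18.7 in DMSO libraries and no peak in BRM014 libraries, and 2 of 4 DEX_BRM014 libraries held it at folds of 4.66 and 3.79. A weak region inside RPL13 was gained, held by 0 of 4 DMSO and 4 of 4 BRM014 libraries.

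Neighbouring regions of RPL10 also moved apart. RPL10 codes for a 60S protein that joins late in maturation of the subunit. The region 264 bp before its start (chrX:154397573-154397801) ranked 51.3, 43.5, 37.7 and 29.6 with DMSO and 8.03, 5.44, 2.48 and 8.88 with BRM014. It fell by 34.3 ± 4.55 points (SE, limma adjusted p = 3.12e-05), the largest fall near any member, and by 46.7 with DEX (adjusted p = 9.18e-07). The region over the start (chrX:154398083-154398434) ranked 25.4 ± 7.35 with DMSO and 56 ± 7.5 with BRM014 (SD, n = 4). It rose by 30.5 ± 5.73 points (adjusted p = 7.55e-04), and by 21.8 with DEX (adjusted p = 0.00783; 0.0761 where only gene ends were ranked). A weak region 316 bp from a start (chrX:154398813-154398981) was held by 4 of 4 DMSO and 0 of 4 BRM014 libraries, and by 4 of 4 DEX_DMSO and 1 of 4 DEX_BRM014 libraries. Towards the 3′ end, at the end of the neighbour DNASE1L1, a region (chrX:154401033-154401293) was held by none of 8 libraries without BRM014 and all 8 with it, at folds of 3.42 to 5.04. The 3′ end region of RPL10 (chrX:154401975-154402269) rose from 2.46 ± 0.78 to 30.3 ± 17.1 (SD, n = 4, limma adjusted p = 0.00211), and with DEX its change of 11.7 points did not pass (adjusted p = 0.142).

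Further changes in the rank were at genes of both subunits, and not all are named. Stalk proteins and paralogues apart, 13 of 41 main regions of the large subunit and 7 of 31 of the small subunit rose without DEX by limma. With DEX 19 and 10 did. RPS27, a zinc finger protein of the small subunit, ranked 23.8, 28.7, 11.1 and 20.7 with DMSO and 56.7, 30.3, 51.9 and 69.1 with BRM014 at its start, a rise of 30.9 ± 7.33 points (SE, limma adjusted p = 0.00422). The stalk proteins recruit elongation factors to the ribosome. RPLP2 ranked 38.3, 37.9, 22.9 and 22.5 with DMSO and 51.4, 68.4, 53.5 and 57.8 with BRM014, and it rose by 27.4 points (adjusted p = 0.002) and by 38.2 with DEX (adjusted p = 9.79e-05). RPLP0 rose by 16 points (adjusted p = 0.0295) and by 16.5 with DEX. RPLP1 changed by 18.3 points without passing the test (adjusted p = 0.0585), and with DEX it rose by 20.8 (adjusted p = 0.0326). Among gene ends only, neither RPLP0 (adjusted p of 0.292, and 0.392 with DEX) nor RPLP1 (0.32 and 0.246) passed. RPS6, the main target of S6 kinase, stood at 89.5 ± 1.07 and 91.7 ± 1.01, and RPL11 at 95.8 ± 2.8 and 95.6 ± 0.927 (SD, n = 4). RPSA, which doubles as a laminin receptor, rose by 14.6 points (adjusted p = 0.0132), and RPS3, which lines the mRNA entry channel, by 11.7 (adjusted p = 0.0161). With DEX RPSA rose by 17.7 and RPS3 did not pass (adjusted p = 0.0693). Among gene ends only, neither passed without DEX (0.27 and 0.114) or with it (0.151 and 0.371). RPS19, the most often mutated gene in Diamond-Blackfan anaemia, changed by 1.15 points at its start (adjusted p = 0.826) and rose by 9.95 with DEX (adjusted p = 0.0336, and 0.462 among gene ends only). RPL41 changed by 5.46 points (adjusted p = 0.314).

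Among the paralogues, RPL3L, known from muscle, had its main region at a gene end, and it rose by 20.9 points (limma adjusted p = 2.43e-04). RPS27L rose by 11, RPL7L1 by 11.6 and RPL36AL by 7.65 (adjusted p of 0.0336, 0.0187 and 0.0282), and all 3 also rose with DEX. Among gene ends only, these 3 did not pass without DEX (adjusted p of 0.206, 0.193 and 0.146), and with DEX RPL36AL did (0.0278). RPL3L passed there without DEX (0.00687) and not with it (0.0839). RPL22L1, RPL26L1 and RPL39L did not pass the test without DEX, with changes of 6.82, 12.6 and 3.15. With DEX RPL26L1 rose by 25.5 points (adjusted p = 0.00841, and 0.0608 among gene ends only). RPL26L1 had no region at the ends of its gene span held by all libraries, but 2 near an annotated start inside the span were held by every library. Regions that fell lay mostly outside the genes. Of the 9 fallers without DEX, 1 was at a member gene end (that of RPL10), 3 at the end of another gene and 5 elsewhere in a flank. RPS26 and RPL23 each had a flank region that fell by 28.9 points (adjusted p of 0.0217 and 0.012), and RPL30 one at a neighbour's end that fell by 25.4 (adjusted p = 0.0171). By the interaction term in limma, a different effect of BRM014 with DEX was called at 0.662% of the regions held by all 16 libraries. None of the 193 member regions was called, and 13 of them had an unadjusted p under 0.05.

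With knockdown of both ATPases few member regions were lost as well. Fewer regions passed the rank fit than with BRM014, near members as over all regions. Member regions held numbered 291, 327, 319 and 332 in the control libraries and 261, 277, 219 and 268 in the knockdown libraries, groups that did not overlap, with a drop of 19.2% in the mean. All peaks dropped by 40.6%. Lost regions numbered 7 of 448 near members (1.56%, against 6.61% of all regions) and none was gained (0.0272% of all). At the ends of all protein-coding genes 2.81% were lost. Of the 245 member regions held by every control library, 188 (76.7%) were kept, against 53.8% near all protein-coding genes. At member gene ends it was 82.5% and at all gene ends 71.8%. None of the 7 lost regions was at a member gene end. They lay inside RPL22, RPS24 and RPS3, at the end of a neighbour of RPL8 and RPS16, and in the flanks of RPL27 and RPS9. The number changed was 16 without siCtl_only replicate 1 and 11 without siBRG1_siBRM replicate 2. With equal numbers of best peaks 5 were gained and 1 lost, and the shares over all regions at that setting are not given here. The region inside RPL22 (chr1:6188605-6188831) had folds of 8.24, 9.52, 9.65 and 5.5 with control siRNA and no peak with siBRG1_siBRM, and it overlaps the one lost with BRM014. The one lost at the end of ZNF517 beside RPL8 likewise overlaps a region lost with BRM014. The region inside RPL3 was held by 4 of 4 control and 2 of 4 knockdown libraries. siBRG1_siBRM replicate 3 had both the fewest peaks, 37184, and the fewest member regions, and its depth was not tested as a source of this.

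By fold rank, 4 member regions rose and 1 fell with siBRG1_siBRM (limma, 28871 regions held by all 8 libraries), against 3.19% and 4.83% of all regions and 4.66% and 1.44% of regions at gene ends. The median change near members was 6.53 points, over all regions 1.57 and over gene ends 4.85. Near members the 95% intervals had a median half-width of 13.9 points, against 11 in the BRM014 experiment, where 16 libraries were fitted together. Of all regions 8.02% were called here and 31.6% for BRM014 without DEX, so the fewer calls do not show a smaller change. For member regions at a gene end it was 7.67. RPS12 rose by 27.9 ± 6.76, RPL13 by 27.5 ± 6.9, RPL35 by 24.3 ± 6.32 and RPS24 by 19.5 ± 4.75 points (SE, limma adjusted p of 0.0332, 0.0367, 0.0409 and 0.0338). At RPL13 the ranks were 39.3, 32.7, 27.2 and 26.4 with control siRNA and 56.1, 54.5, 65.2 and 59.6 with siBRG1_siBRM, without overlap. A flank region of RPS27A, which is made as a fusion with ubiquitin, fell by 25.9 points (adjusted p = 0.0422). None of the 5 calls remained with the replicate number as a block, where their adjusted p was 0.052 to 0.0719, or in ranks among gene ends, where the RPS27A region has no rank. Leaving out 1 library gave 0 to 10 calls, with 10 without siBRG1_siBRM replicate 1. The region before RPL10 that fell with BRM014 ranked 54.4, 27.6, 34.1 and 38.1 with control siRNA and 50.1, 48.4, 51.6 and 44.4 with siBRG1_siBRM, a change of 10.1 points with a 95% interval from −6.65 to 26.8. Inhibitor and siRNA were used in separate experiments, so their difference was not tested.

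DEX changed few member regions. After 2 h with control siRNA, 3 of 591 regions were gained and 2 lost, where 2.10% and 0.681% of all regions were (0.508% and 0.338% of member regions). With siGATA6, 4 were gained and 0 lost, against 2.02% and 0.509%. None lay at a member gene end. At the ends of all protein-coding genes 0.96% were gained and 0.317% lost with control siRNA, and 1.06% and 0.182% with siGATA6. A weak region 4382 bp from RPL35A, at the ends of DRC9 and LMLN (chr3:197960992-197961139), was the only one gained in both settings, with folds of 2.75, 3.93 and 3.85 in the siCtl_DEX libraries, 2.67, 3.69 and 3.69 in the siGATA6_DEX libraries and no peak in the 6 vehicle libraries. With control siRNA a region inside RPL14 and one inside RPS24 were also gained, and flank regions of RPL6 and RPL13A were lost. With siGATA6, regions near RPL23A and RPL19 were among those gained. After 4 h in DMSO, 1 region was gained and none was lost, against 1.33% and 0.383% of all. Under BRM014 none was gained or lost, against 0.170% and 0.0763%. At the ends of all protein-coding genes these shares were 0.51% and 0.195% in DMSO and 0.109% and 0.0324% under BRM014. With 1 library left out, the numbers changed reached 15 and 10 at 2 h (without siCtl_Veh replicate 3 and siGATA6_DEX replicate 3) and at most 3 at 4 h.

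No main region of a member changed its rank with DEX by limma. After 2 h with control siRNA 0 of 265 member regions held by all 12 libraries passed, against 1.84% of all regions, and 12 had an unadjusted p under 0.05. Of these 265 regions, 69.8% lay at a gene end. Over all regions at gene ends 0.421% rose and 0.407% fell with control siRNA, and 0.357% and 0.416% with siGATA6. With siGATA6, 1 passed against 1.55%: a region at a gene end of RPL10A, a 60S protein, ranked 30.7, 33.2 and 26.2 with vehicle and 10.2, 12.2 and 7.29 with DEX (adjusted p = 0.0454), and it no longer passed when any of the 6 libraries was left out. After 4 h, 0 of 193 passed in DMSO (1.19% of all) and 0 under BRM014 (2.55% of all), with 17 and 8 at an unadjusted p under 0.05. Over all regions at gene ends 0.355% rose and 0.414% fell in DMSO, and 0.348% and 0.370% under BRM014. At such shares few calls would be made among the member regions in any case. The 95% intervals had a median half-width of 9.32 percentile points in the GATA6 experiment and 11 in the BRM014 experiment.

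Knockdown of GATA6 changed few regions, near members as over all regions. With vehicle, 0 member regions were gained and 3 lost (0.508%), against 0.374% and 0.658% of all regions. At the ends of all protein-coding genes it was 0.138% and 0.392%. Among the lost ones were flank regions of RPS20 and RPL6, each held by all 3 siCtl_Veh and no siGATA6_Veh library. These numbers reached 13 without siCtl_Veh replicate 3. With DEX, 0 were gained and 2 lost (0.338%), against 0.566% and 0.597% of all and 0.312% and 0.314% at the ends of all protein-coding genes. The lost ones were inside RPS24 and 92 bp from an annotated start of RPL26L1, at the end of RPL26L1-AS1. By rank, 0 member regions passed in either setting by limma, where 0.304% and 0.454% of all regions did, with 8 and 13 at an unadjusted p under 0.05. Over all regions at gene ends 0.0229% rose and 0.0640% fell with vehicle, and 0.0183% and 0.0686% with DEX. At such shares 0 calls among 265 member regions are no result about the members. Among the 71797 regions held by all 12 libraries, 0% were called for a different effect of DEX with siGATA6 (interaction term in limma). Regions that were gained or lost have no rank and were not part of this fit. Near members, 5 regions had an unadjusted p under 0.05, and the 95% intervals had a median half-width of 13.2 points. Median ranks of the main regions were 75.4 to 77.9 in the siCtl_Veh libraries and 76.5 to 79 in the siGATA6_Veh libraries.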

How the data were processed

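ATAC-seq peak lists of 36 libraries were used, with peaks called in each library on its own. The notes of the submitters on processing (the submitters' processing notes) name bcl2fastq, SAMtools, MACS2, HOMER and the build GRCh38 (hg38); aligner and caller settings: not given in the sources used here. The authors deposited, per peak, a score, a fold (ratio over background at the summit), −log10 p, −log10 q and a summit position. There are no read counts, so absolute depth is unknown; a relative background level was recovered from the 3000 weakest peaks per library (tolerance 0.002).

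Peaks on chromosomes 1 to 22 and X that overlapped by at least 1 bp were joined within each experiment. A region counted as gained or lost when every library of one group held it and none of the other. Gene ends reach 1 kb from either end of a gene. Fold ranks were fitted with limma 3.58.1 (R 4.3.3), with a mean per group and a trend in the variance, at an adjusted p under 0.05; the fit was tested on simulated data. Python 3.11.15, pandas 2.3.3, SciPy 1.17.1 and statsmodels 0.14.6 did the rest. Groups came from titles that number biological replicates; nothing more is stated on how cultures were separated. Alternatives were a −log10 q of at least 5, peaks covering 50% of a region, equal numbers of best peaks, ranks among gene ends only, a replicate block and leaving out each library.

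Members, lists and motifs were chosen with earlier results of these data known. Genes named were a fixed list of members, all members with a gained or lost region (the 12 nearest a gene end where there were more), members without a gene-end region in all libraries, the 4 largest rank changes per direction, and the 4 highest and lowest ranks. A region beside a member may belong to a neighbouring gene. Gene positions and promoter windows came from RefSeq. Some genes are not reported here by name; counts include them.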

Additional observations from a re-analysis of the deposited data

Results flagged for a closer look

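In 60 groups of values per library, 3 had a lowest library flagged by its gap to the next library over the whole range. Chance gives about 1 in 20. Where the other libraries tie, as for the main regions, any gap is the whole range, however small. DEX_DMSO replicate 2 held the main region of 83 members and the others of its group 84. siBRG1_siBRM replicate 3 held that of 82 members, the others 84, and this replicate also had the fewest peaks, 37184. siCtl_only replicate 3 had 81639 peaks, the fewest of its group.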

How the results depend on the processing

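Counts of gained and lost member regions moved by over 1.5 times under several settings. At a −log10 q of at least 5, DEX for 2 h changed 3 regions with control siRNA and 2 with siGATA6, and the stratified test of BRM014 called 17. With 50% of a region covered, DEX for 2 h with siGATA6 changed 7, BRM014 changed 16 without and 25 with DEX, and DEX under BRM014 changed 1. With equal numbers of best peaks, DEX for 2 h with control siRNA changed 1, siGATA6 with DEX changed 1, and BRM014 without DEX changed 19, of which 15 were gained. Here all libraries lose their weaker peaks until lists are of equal length, so the lists of treated libraries no longer are the shorter ones. Shares over all regions at these settings are not given here. Ranked among gene ends only, member calls were 26 and 23 for BRM014 without and with DEX and 0 for siBRG1_siBRM; the causes were not tested beyond the fewer regions ranked.

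Leaving out 1 library gave 7 to 15 changed regions for DEX at 2 h with control siRNA, 6 to 10 with siGATA6, 6 to 13 for siGATA6 with vehicle and 4 to 9 with DEX. It gave 9 to 16 for BRM014, 18 to 22 with DEX, 1 to 3 for DEX at 4 h, 0 to 3 under BRM014, 7 to 16 for siBRG1_siBRM and 8 to 20 in the stratified test of BRM014. Rank calls were 46 to 66 for BRM014, 45 to 66 with DEX, 0 to 10 for siBRG1_siBRM, 0 for DEX at 2 h with siGATA6, and 0 to 1 for DEX at 4 h in either setting.

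With the replicate block, rank calls for siBRG1_siBRM went from 5 to 0, and 57 member regions rose and 10 fell with BRM014 without DEX, 65 and 9 with DEX; the block moved no other count of member calls by over 1.5 times. Same-numbered libraries deviated together (correlation over 0.1) in 13 of 18, 2 of 24 and 2 of 4 pairs in the GATA6, BRM014 and knockdown experiments. In these, 10 of 12, 11 of 16 and 5 of 8 libraries correlated best with their own number. In the GATA6 experiment the median correlation was 0.137 for same-numbered pairs and −0.153 for other pairs, so same-numbered libraries varied together there. The main fits took no pairing from the numbers. With the block, all regions called for DEX at 2 h with control siRNA went from 1322 to 1966, with 0 member regions in both. Depth is known in relative terms only, so a region without a peak is one that was not called, not one shown to be closed.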
